A study of Mus musculus with 15 samples.

Results

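The genes described here encode the sensors, the adaptor, the caspases and the membrane effectors of the inflammasome and of pyroptosis in mouse bone marrow-derived macrophages (BMDMs). They are 10 genes named by symbol (Nlrp3, Nlrp1b, Nlrc4, Mefv, Pycard, Casp1, Casp4, Casp8, Gsdmd and Ninj1) and matched to Ensembl gene identifiers. They are 10 of the 51763 genes in the count table, and all 10 were among the 16919 genes that passed the filter on low counts. The study asked how the redox form of HMGB1, a nuclear protein that acts as an alarm signal outside the cell, shapes the state of macrophages. RNA was sequenced from 15 BMDM libraries in 5 groups of 3. BMDMs from wild-type female C57BL/6NTac mice, 8 to 10 weeks old in the study's methods, were stimulated for 24 h. The control group received PBS. The frHMGB1 group received fully reduced HMGB1 at 5 µg/mL, and the dsHMGB1 group received disulfide HMGB1 at 5 µg/mL. The LPS group received lipopolysaccharide at 1 µg/mL. The LPS/IFNγ group received interferon-γ at 20 ng/mL with LPS, for which the treatment field of the labels gives 1 µg/mL and the protocol text gives 100 ng/mL. In comparisons of LPS/IFNγ with LPS, interferon-γ and the dose of LPS therefore cannot be told apart. Cells of 5 mice were pooled before seeding, so the 3 libraries of a group are technical replicates and the p-values below measure only the spread between such replicates, not between mice. The 2 HMGB1 forms came from different preparations, so redox form and preparation cannot be told apart.

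An inflammasome is a complex that a sensor protein builds in the cytosol when it meets microbial products or signs of damage, and in it caspase-1 becomes active, often through the adaptor ASC. Active caspase-1 matures IL-1β and IL-18 and cuts gasdermin D, whose freed end makes pores in the plasma membrane, while in the mouse caspase-11 cuts gasdermin D after binding LPS in the cytosol. In macrophages a first, priming signal raises the transcripts of some of these genes, and a later signal assembles the complex, so the RNA levels measured here describe priming and not assembly, cleavage or cell death.

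Libraries held from 40934540 counts (frHMGB1 replicate 3) to 80925478 counts (LPS/IFNγ replicate 3). PBS replicate 3 stood apart from the other PBS libraries. Its log2 levels correlated with those of PBS replicates 1 and 2 at Pearson r of 0.938 and 0.9331, against 0.9865 to 0.9928 for the other pairs within a group. Mitochondrial genes took 0.346% of its counts, against 0.84% and 0.89% in the other PBS libraries and 0.513% to 0.929% in the 12 stimulated libraries. Processed pseudogenes took 1.49% of its counts, against 0.816% and 0.805% in PBS replicates 1 and 2. All results below include it, and each call of a member that changed without it is given with the value without it. The marker genes were not fitted again without it.

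The markers of macrophages were present in all libraries. All 8 markers of the list passed the filter, and their summed level ran from 13500 CPM (counts scaled to the library total) in LPS/IFNγ replicate 2 to 27300 CPM in frHMGB1 replicate 1, with Lyz2 giving 70.2% of the counts. By group the sum was 26200, 25300 and 21900 CPM in PBS and 27300, 27200 and 27000 CPM in frHMGB1. It was 21000, 19600 and 20600 CPM in dsHMGB1, 16500, 16100 and 16800 CPM in LPS, and 13900, 13500 and 13800 CPM in LPS/IFNγ. The sums of the dsHMGB1, LPS and LPS/IFNγ libraries lay below every PBS library on this scale. On normalized counts the list was mixed for LPS minus PBS, where Lyz2 (log2 fold change -0.05) and Cd68 (0.12) were not called. Csf1r was called lower (-0.44), and Adgre1 (1.09), Mertk (2.01), Fcgr1 (1.71) and Cd14 (3.1) were called higher. In LPS/IFNγ minus PBS, Lyz2 and Csf1r were called lower and 4 of the list higher. Lyz2 was also called lower in LPS/IFNγ minus LPS and in dsHMGB1 minus frHMGB1. In PBS replicates 1, 2 and 3, Adgre1 had 49300, 51200 and 19400 normalized counts and Mertk 4620, 4770 and 1310. The sizes of both rises therefore depend on replicate 3. In RPKM (counts per kilobase scaled by the library total), Adgre1 had 358, 373 and 112 in PBS and 345 to 367 in LPS. The part of these markers in the results was not tested. Neutrophil markers summed to 1.97 to 5.47 CPM, 92.9% of it S100a8, with S100a9, Ly6g, Mpo and Retnlg at 0. Of the 2 tested, Camp was called higher than in PBS after dsHMGB1 (16.3-fold, 30.48 against 1.724 normalized counts, adjusted p 0.00508) and LPS (8.36-fold, adjusted p 0.0244), and S100a8 after LPS (1.97-fold, adjusted p 0.0438). S100a8 had 92.5, 88.9 and 292 normalized counts in PBS replicates 1, 2 and 3, so its fold depends on replicate 3. Camp had 5.17, 0 and 0 there, so its folds rest on 8 counts in PBS replicate 1. LPS replicate 3 (2.94) lay below that library. The T cell list summed to 13.5 to 35.4 CPM, all of it Cd4, with Cd3e, Cd3g and Cd8a at 0. B cell markers reached at most 0.3 CPM, natural killer cell markers 0.402 CPM and erythroid markers 0.0596 CPM. Dendritic cell markers ran from 0.982 to 14.2 CPM, with Xcr1 giving 56.6%, and moved with the groups: 1.73 to 2.77 CPM in PBS, 3.09 to 4.28 CPM in dsHMGB1, 7.77 to 8.48 CPM in LPS and 13.1 to 14.2 CPM in LPS/IFNγ. In LPS/IFNγ minus PBS, Zbtb46 was called 33.8-fold higher and Xcr1 6.02-fold higher. Xcr1 had 45.9, 52.4 and 145 normalized counts in PBS replicates 1, 2 and 3, so the size of its differences from PBS depends on replicate 3. It was called lower after frHMGB1 (adjusted p 0.0373), which was not tested without that library. Mast cell markers ran from 1.68 to 8.25 CPM, with Kit giving 98.1%. Kit was called lower after LPS/IFNγ than in PBS (2.1-fold, adjusted p 0.00325) and than after LPS (2.18-fold, adjusted p 0.00997). Stromal markers ran from 118 to 282 CPM, with Col1a1 giving 47.1%. Dcn was called higher than in PBS after dsHMGB1 (2.45-fold), LPS (3.47-fold) and LPS/IFNγ (3.77-fold), and Col1a1, Col1a2 and Col3a1 were called 1.54-fold to 1.82-fold higher after LPS and LPS/IFNγ. In PBS replicates 1, 2 and 3, Col1a1 had 5480, 5670 and 2830 normalized counts, so the size of its rise depends on replicate 3. By RPKM, Col1a1 had 19.6, 20.4 and 8.08 there, and 15.1 to 16.6 in LPS and LPS/IFNγ. Col1a2 had 9.33, 10 and 4.44, and 7.06 to 7.64 in these 2 groups. On that scale both groups lay below PBS replicates 1 and 2 for both genes, which was not tested. Osteoclast markers ran from 104 to 243 CPM, with Acp5 giving 71.6%. The osteoclast sum was 237, 241 and 243 CPM in LPS and at most 152 CPM in the other groups, and Acp5 was called 7.79-fold higher in LPS than in PBS. Acp5 was also called higher than in PBS after dsHMGB1 and LPS/IFNγ. Ctsk, of the same list, was called lower than in PBS after dsHMGB1 (2.1-fold), LPS (2.11-fold) and LPS/IFNγ (2.32-fold). The part of the marker genes of other cell types in the results was not tested. In bulk RNA, fewer cells of a type and less RNA per cell cannot be told apart.

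Several members moved together, so the bases before their transcription starts were searched for 3 short motifs on both strands. RefSeq promoter sequences (build GRCm38.p6) matched 9 of the 10 members with 12 starts in all, and Gsdmd was not matched. The loose NF-kB site, read as GGG, any 5 bases and CC, was in the 250 bases before 6 of the 12 starts, which belong to Nlrp3, Mefv, Casp1, Casp4 and Ninj1, and in 45.8% of the 32851 starts searched. The interferon-stimulated response element, read as GAAA, any 2 bases and GAAA, was before 2.98% of all starts and before 0 of the 12. The letters TTCNNNGAA, of the gamma-activated site, were before 7.02% of all starts and before 0 of the 12. A match is a description of the letters and not a bound site, and the share among members was near that of all starts. The windows of 4 members with different response patterns are printed from the plus strand, in lower case, with NF-kB matches on either strand in capitals, and matches can overlap. The windows of Nlrp3 (chr11:59541319-59541567, GRCm38.p6), Casp4 (chr9:5308599-5308827) and Ninj1 (chr13:49187279-49187484) end before the first annotated exon, and that of Casp8 (chr1:58802252-58802501) lies within an intron of a longer annotated transcript. Nlrp3 carries 1 match, Casp4 carries 4, Ninj1 carries 4 and Casp8 carries 0.
Nlrp3: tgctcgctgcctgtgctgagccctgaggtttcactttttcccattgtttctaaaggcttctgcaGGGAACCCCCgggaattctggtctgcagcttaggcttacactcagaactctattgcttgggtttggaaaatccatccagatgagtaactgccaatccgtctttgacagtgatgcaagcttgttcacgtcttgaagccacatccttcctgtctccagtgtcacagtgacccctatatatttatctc
Casp4: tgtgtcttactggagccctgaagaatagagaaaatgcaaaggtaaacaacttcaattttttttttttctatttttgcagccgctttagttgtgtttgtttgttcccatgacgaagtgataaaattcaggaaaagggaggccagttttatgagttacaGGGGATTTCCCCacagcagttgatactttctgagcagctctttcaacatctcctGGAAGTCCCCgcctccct
Casp8: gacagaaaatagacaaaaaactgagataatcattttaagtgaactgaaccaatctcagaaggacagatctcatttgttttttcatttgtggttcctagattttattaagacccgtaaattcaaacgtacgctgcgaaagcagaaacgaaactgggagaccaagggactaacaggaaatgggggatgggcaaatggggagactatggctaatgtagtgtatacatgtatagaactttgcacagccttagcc
Ninj1: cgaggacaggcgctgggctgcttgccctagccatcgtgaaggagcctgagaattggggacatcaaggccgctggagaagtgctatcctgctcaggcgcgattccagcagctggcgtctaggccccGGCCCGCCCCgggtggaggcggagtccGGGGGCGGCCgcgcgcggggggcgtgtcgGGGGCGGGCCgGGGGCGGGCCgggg

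A gene was called in a comparison when its adjusted p was under 0.05 by the edgeR quasi-likelihood F test, with Benjamini-Hochberg adjustment over all 16919 genes. Log2 fold changes are of the first group minus the second, and ± marks the SD over 3 libraries for a level and the standard error for a log2 fold change. After frHMGB1, 2 of the 10 members were called higher than in PBS, against 1.31% of all genes tested, and 0 were called lower, against 5.69% of all genes. Without PBS replicate 3 the count called higher was 6, against 8.41% of all genes in that fit, and with the 2 groups fitted alone it was 0, against 0.047%. The count of 0 lower was also 0 at an unadjusted p under 0.05 and 0 by the DESeq2 Wald test. After dsHMGB1, 7 members were called higher and 1 lower than in PBS, against 23.3% and 24.2% of all genes. After LPS, 7 were called higher and 2 lower, against 26.7% and 36.2% of all genes. After LPS/IFNγ, 7 were called higher and 2 lower, against 29% and 31.2% of all genes. These 4 comparisons share the PBS libraries, so they do not count as separate evidence for a member. The members were chosen with earlier results of these data known, so the counts beside these shares are a description and not a test.

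The median log2 fold change of the members against PBS was 0.23 for frHMGB1, 1.41 for dsHMGB1, 1.89 for LPS and 1.31 for LPS/IFNγ. The median over all genes tested was -0.008, -0.103, -0.211 and -0.125 in the same order. With TMM scaling in edgeR these medians of all genes were 0.003, -0.113, -0.271 and -0.15. The members called higher against PBS in each of the 3 stronger stimulations were the same 7 genes (Nlrp3, Mefv, Casp1, Casp4, Casp8, Gsdmd and Ninj1), and these calls held in all 7 other analysis settings and when each of the 15 libraries was left out in turn. Scaling by the library total alone was not among these settings and was not tested. The folds against PBS are smaller on that scale for these genes: from mean RPKM, LPS over PBS is 82-fold for Nlrp3, 2.49-fold for Casp1, 2.42-fold for Casp8 and 2.18-fold for Gsdmd. The means of Ninj1 turn there for LPS and LPS/IFNγ against PBS, and those of Pycard for LPS/IFNγ against PBS (9.28 against 11.1 RPKM). Means also turn, relative to normalized counts, for Mefv and Pycard in dsHMGB1 minus LPS and for Gsdmd in dsHMGB1 minus LPS/IFNγ, 3 differences that were not called. The falls against PBS are larger on that scale: 17.6-fold (LPS) and 5.58-fold (LPS/IFNγ) for Nlrp1b, and 4.53-fold and 8.85-fold for Nlrc4. Nlrp1b was called lower in each of the 3 stimulations under the same settings, and Nlrc4 after LPS and LPS/IFNγ.

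**Figure D1:**
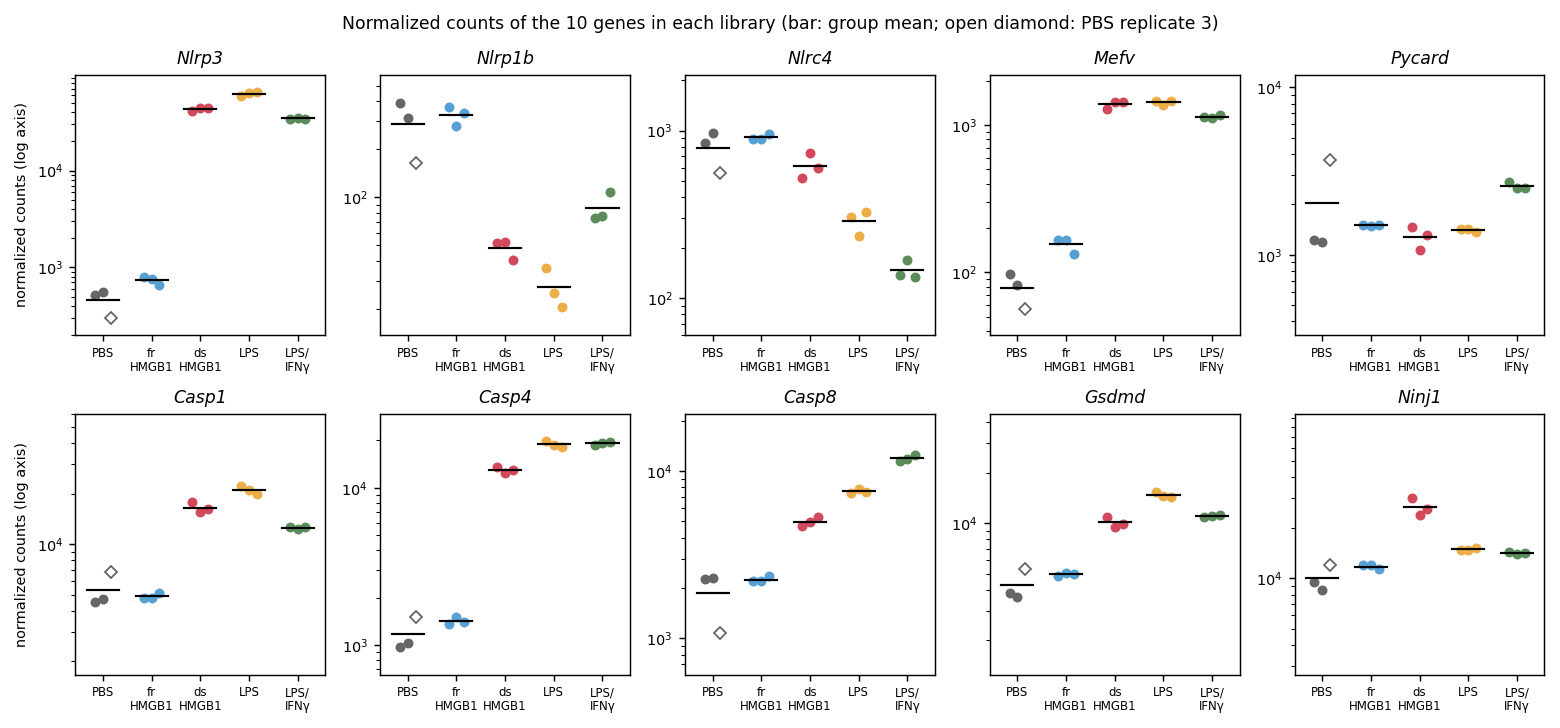
Normalized read counts (log axis) of the 10 members in each of the 15 libraries, with a bar at each group mean and an open diamond for PBS replicate 3. Nlrp3 runs from 299 in PBS replicate 3 to 65453 in LPS replicate 3, whereas the PBS libraries of Pycard run from 1188 to 3693.

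The sensors responded in opposite directions. Nlrp3 (ENSMUSG00000032691, chr11:59541568-59566956) encodes the sensor that many kinds of membrane and ion disturbance set off, and its window above carries 1 NF-kB match. It had 523, 553 and 299 normalized counts in PBS and 803, 761 and 658 in frHMGB1. It had 40919, 44218 and 44334 in dsHMGB1, 58338, 63812 and 65453 in LPS, and 34386, 35197 and 34149 in LPS/IFNγ. No 2 groups overlapped, in the order PBS, frHMGB1, LPS/IFNγ, dsHMGB1 and LPS from low to high. Against PBS (458 ± 139) the log2 fold change of Nlrp3 was 6.55 ± 0.18 for dsHMGB1 (93.6-fold, adjusted p 8.19e-11) and 7.08 ± 0.18 for LPS (136-fold, adjusted p 2.8e-11). It was 6.23 ± 0.18 for LPS/IFNγ (75-fold, adjusted p 5.61e-11). All 9 libraries of these groups lay above every PBS library.

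After frHMGB1, Nlrp3 was 1.61-fold higher than in PBS, a log2 fold change of 0.68 ± 0.18 (adjusted p 0.0433), with 3 of 3 frHMGB1 libraries above every PBS library. This call was near the threshold. It was not made when any 1 of the 12 libraries of the 4 stimulated groups was left out (adjusted p up to 0.157). It was also lost with no filter (0.0692), a filter of 1 CPM (0.0592), protein-coding genes alone (0.214) and the pair fitted alone (0.509). The adjusted p ran from 0.000579 to 0.509 over all alternatives. Without PBS replicate 3 the call was kept, with a log2 fold change of 0.45 (adjusted p 0.000579).

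Between stimulations, Nlrp3 was 1.81-fold lower after LPS/IFNγ than after LPS, a log2 fold change of -0.85 ± 0.18 (adjusted p 0.0053), with all 3 LPS/IFNγ libraries below every LPS library. The dsHMGB1 libraries also lay below the LPS libraries, but the difference (-0.54 ± 0.18, adjusted p 0.0745) missed the threshold. Without PBS replicate 3, which enters that comparison only through normalization, the filter and the shared estimate of the spread, it passed (adjusted p 2.38e-06, range over alternatives 2.38e-06 to 0.157). It also passed by the DESeq2 Wald test (0.0113), with RLE scaling (0.0328) and with the pair fitted alone (0.000246). For dsHMGB1 minus LPS/IFNγ, Nlrp3 differed by 0.32 ± 0.18 (adjusted p 0.195), and it too passed without PBS replicate 3 (0.36, adjusted p 9.37e-05, range 9.37e-05 to 0.337) and with the pair fitted alone (0.000854).

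Nlrp1b (ENSMUSG00000070390, chr11:71153102-71230733), on the same chromosome as Nlrp3, encodes a sensor that is set off when its own front end is cut and degraded, as by a bacterial protease. It has near copies in Nlrp1a and Nlrp1c-ps, so the share of its reads that could be placed is uncertain. It had 391, 314 and 163 normalized counts in PBS and 366, 281 and 339 in frHMGB1. It had 51.6, 52.8 and 40.4 in dsHMGB1, 36.2, 25.4 and 20.6 in LPS, and 74.2, 76.8 and 108 in LPS/IFNγ. The 9 libraries of these 3 groups lay below all 6 PBS and frHMGB1 libraries, which overlapped each other. Against PBS (289 ± 116), Nlrp1b fell 6.02-fold after dsHMGB1 (-2.59 ± 0.31, adjusted p 1.53e-05) and 10.5-fold after LPS (-3.4 ± 0.35, adjusted p 1.34e-06). It fell 3.36-fold after LPS/IFNγ (-1.75 ± 0.31, adjusted p 0.000198). After LPS/IFNγ it was 3.14-fold higher than after LPS (1.65 ± 0.36, adjusted p 0.00268), with 3 of 3 libraries above every LPS library. The level after dsHMGB1 lay between these groups without overlap. The difference of dsHMGB1 minus LPS (0.81 ± 0.36, adjusted p 0.0918) was called without PBS replicate 3 (adjusted p 0.0132, range over alternatives 0.0132 to 0.294) and with the pair fitted alone (0.0423). That of dsHMGB1 minus LPS/IFNγ (-0.84 ± 0.32, adjusted p 0.0625) was called without PBS replicate 1 (-0.82, adjusted p 0.0451) or PBS replicate 3 (-0.8, adjusted p 0.00301), with a range of 0.00301 to 0.243. It was also called in 5 of the 7 other settings: by the DESeq2 Wald test (0.0278), with RLE scaling (0.0478), with a filter of 1 CPM (0.0469), with protein-coding genes alone (0.043) and with the pair fitted alone (0.0111).

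Nlrc4 (ENSMUSG00000039193, chr17:74425438-74459142) encodes the sensor that acts with NAIP proteins to recognize bacterial flagellin and secretion needles. It had 844, 970 and 556 normalized counts in PBS and 891, 890 and 947 in frHMGB1. It had 521, 735 and 595 in dsHMGB1, 305, 235 and 326 in LPS, and 138, 168 and 133 in LPS/IFNγ. The LPS/IFNγ libraries lay below the LPS libraries, and these below all dsHMGB1, PBS and frHMGB1 libraries, whereas dsHMGB1 overlapped PBS through PBS replicate 3. Against PBS (790 ± 212), Nlrc4 fell 2.74-fold after LPS (-1.46 ± 0.22, adjusted p 4.17e-05) and 5.41-fold after LPS/IFNγ (-2.44 ± 0.22, adjusted p 5.22e-07). It was 1.97-fold lower after LPS/IFNγ than after LPS (-0.98 ± 0.23, adjusted p 0.0066).

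After dsHMGB1 the fall of Nlrc4 depended on 1 library. The difference of dsHMGB1 minus PBS was -0.36 ± 0.21 (adjusted p 0.159), and without PBS replicate 3 it was -0.59 and called (adjusted p 0.00135, range over alternatives 0.00135 to 0.506). Against frHMGB1, Nlrc4 was 1.47-fold lower after dsHMGB1 (-0.56 ± 0.21, adjusted p 0.0345), with 3 of 3 libraries below every frHMGB1 library. That call was lost without frHMGB1 replicate 1, 2 or 3 (adjusted p 0.0682, 0.0709 and 0.0899) and without dsHMGB1 replicate 1 or 3 (0.129 and 0.0954), with a range over all alternatives of 0.000553 to 0.141. Nlrc4 was 2.14-fold higher after dsHMGB1 than after LPS (1.1 ± 0.22, adjusted p 0.00154) and 4.22-fold higher than after LPS/IFNγ (2.08 ± 0.22, adjusted p 8.34e-06), without overlap in either comparison.

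Mefv (ENSMUSG00000022534, chr16:3707218-3718097) encodes pyrin, a further inflammasome sensor. It had 98.3, 82.6 and 56.3 normalized counts in PBS and 166, 166 and 134 in frHMGB1. It had 1283, 1425 and 1438 in dsHMGB1, 1465, 1363 and 1456 in LPS, and 1135, 1108 and 1175 in LPS/IFNγ. Every frHMGB1 library lay above every PBS library, and the dsHMGB1 and LPS libraries overlapped above all others. After frHMGB1, Mefv was 1.91-fold higher than in PBS (0.93 ± 0.16, adjusted p 0.00392), a call kept without each of the 15 libraries (0.77 without PBS replicate 3, adjusted p 0.000231) and lost only when the 2 groups were fitted alone (adjusted p 0.226), with a range of 1.38e-07 to 0.226. Against PBS (79.1 ± 21.2) it was 17-fold higher after dsHMGB1 (4.09 ± 0.14, adjusted p 8.41e-10), 17.6-fold after LPS (4.13 ± 0.14, adjusted p 4.87e-10) and 14-fold after LPS/IFNγ (3.81 ± 0.14, adjusted p 8.63e-10). The LPS/IFNγ libraries lay below the LPS libraries (-0.33 ± 0.12, adjusted p 0.234), a difference called without PBS replicate 3 (adjusted p 0.00207, range 0.000113 to 0.34), by the DESeq2 Wald test (0.0253) and with the pair fitted alone (0.000113). They also lay below the dsHMGB1 libraries, where dsHMGB1 minus LPS/IFNγ (0.28 ± 0.12, adjusted p 0.198) was called without PBS replicate 3 (0.32, adjusted p 0.00274, range 0.00274 to 0.366) and with the pair fitted alone (0.00791).

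Pycard (ENSMUSG00000030793, chr7:127989708-127993867) encodes ASC, the adaptor that joins sensors to caspase-1. Its exons overlap those of Gm45205 on the other strand, which had 12 counts in the whole table. It had 1233, 1188 and 3693 normalized counts in PBS and 1509, 1486 and 1511 in frHMGB1. It had 1460, 1069 and 1307 in dsHMGB1, 1425, 1422 and 1367 in LPS, and 2715, 2517 and 2507 in LPS/IFNγ. PBS replicate 3 was the highest of the 15 libraries, and the other PBS libraries lay below every frHMGB1 and LPS/IFNγ library. Among the stimulated groups LPS/IFNγ was the highest without overlap, and the dsHMGB1 and LPS libraries overlapped below frHMGB1. Pycard was not called against PBS (adjusted p 0.0981 to 0.58 in the 4 comparisons).

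All 4 of those Pycard comparisons changed with the PBS libraries. Without PBS replicate 3, frHMGB1 minus PBS was 0.31 (adjusted p 0.033, range over alternatives 0.033 to 0.91) in place of -0.44 ± 0.34, and LPS/IFNγ minus PBS was 1.02 (adjusted p 2.33e-08, range 2.33e-08 to 0.795) in place of 0.34 ± 0.34. For dsHMGB1 minus PBS (-0.67 ± 0.34) it was called lower without PBS replicate 1 (-0.89, adjusted p 0.0262) or 2 (-0.9, adjusted p 0.0198), but was 0.04 without PBS replicate 3 (adjusted p 0.715), with a range of 0.0198 to 0.715. For LPS minus PBS (-0.54 ± 0.34) it was called lower without PBS replicate 1 (-0.81, adjusted p 0.0322) or 2 (-0.82, adjusted p 0.0247), but was 0.16 without PBS replicate 3 (adjusted p 0.147), with a range of 0.0247 to 0.433. No direction is therefore given for Pycard against PBS.

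Between the stimulations, Pycard was 1.84-fold higher after LPS/IFNγ than after LPS (0.88 ± 0.34, adjusted p 0.0446), with 3 of 3 libraries above. The call was lost when any 1 of the 12 libraries outside PBS was left out (adjusted p up to 0.139, range over alternatives 2.45e-11 to 0.139). It was 2.02-fold lower after dsHMGB1 than after LPS/IFNγ (-1.01 ± 0.34, adjusted p 0.0234). That call was lost without dsHMGB1 replicate 2 (adjusted p 0.0885) or 3 (0.0616) and without LPS/IFNγ replicate 1 (0.0685), 2 (0.0559) or 3 (0.0545), with a range of 1.63e-08 to 0.0885. The difference of dsHMGB1 minus frHMGB1 (-0.23 ± 0.34, adjusted p 0.509) was called without PBS replicate 3 (-0.26, adjusted p 0.0108, range 0.0108 to 0.847).

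The 3 caspases rose after each of the 3 stronger stimulations but ranked them differently. Casp1 (ENSMUSG00000025888, chr9:5298517-5307265) encodes the caspase that inflammasomes activate. It had 4506, 4695 and 6812 normalized counts in PBS and 4749, 4797 and 5093 in frHMGB1. It had 17803, 15594 and 16253 in dsHMGB1, 22229, 20960 and 19830 in LPS, and 12728, 12320 and 12702 in LPS/IFNγ. The LPS libraries were the highest, then dsHMGB1, then LPS/IFNγ, with no overlap between these groups in normalized counts, while PBS and frHMGB1 overlapped. By RPKM the dsHMGB1 and LPS libraries overlapped (means 189 and 191 RPKM). Against PBS (5337 ± 1280), Casp1 rose 3.1-fold after dsHMGB1 (1.63 ± 0.14, adjusted p 9.14e-08), 3.94-fold after LPS (1.98 ± 0.14, adjusted p 1.13e-08) and 2.36-fold after LPS/IFNγ (1.24 ± 0.14, adjusted p 9.15e-07). It was 1.67-fold lower after LPS/IFNγ than after LPS (-0.74 ± 0.14, adjusted p 0.000587). It was 1.32-fold higher after dsHMGB1 than after LPS/IFNγ (0.4 ± 0.14, adjusted p 0.0149), a call lost without dsHMGB1 replicate 1 (adjusted p 0.0509, range 7.38e-06 to 0.0509). The gap of dsHMGB1 minus LPS in Casp1 (-0.34 ± 0.14, adjusted p 0.0873) was called without PBS replicate 3 (adjusted p 0.000239, range 0.000239 to 0.23) and with the pair fitted alone (0.00996).

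Casp4 (ENSMUSG00000033538, chr9:5308828-5336783) is the mouse gene of caspase-11, the intracellular sensor of LPS, and it starts just after the end of Casp1 on the same strand. It had 971, 1029 and 1510 normalized counts in PBS and 1363, 1507 and 1393 in frHMGB1. It had 13633, 12421 and 12981 in dsHMGB1, 19706, 18643 and 18225 in LPS, and 18797, 19299 and 19559 in LPS/IFNγ. The dsHMGB1 libraries lay below both LPS groups, which overlapped each other, and far above PBS and frHMGB1. Against PBS (1170 ± 296), Casp4 rose 11.2-fold after dsHMGB1 (3.48 ± 0.14, adjusted p 1.22e-10), 16.2-fold after LPS (4.01 ± 0.14, adjusted p 2.5e-11) and 16.5-fold after LPS/IFNγ (4.04 ± 0.14, adjusted p 1.91e-11). It was 1.45-fold lower after dsHMGB1 than after LPS (-0.54 ± 0.14, adjusted p 0.00868) and 1.48-fold lower than after LPS/IFNγ (-0.56 ± 0.14, adjusted p 0.00297). From mean RPKM these gaps were smaller, 1.15-fold (59.9 against 68.9 RPKM) and 1.18-fold (59.9 against 70.8 RPKM), still without overlap. They were not tested on that scale. The difference of LPS/IFNγ minus LPS was 0.03 ± 0.14 (adjusted p 0.758). After frHMGB1 it was 0.28 ± 0.15 (adjusted p 0.19) against PBS, and 0.5 without PBS replicate 3, where it was called (adjusted p 5e-05, range 5e-05 to 0.91).

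Casp8 (ENSMUSG00000026029, chr1:58795374-58847503) encodes the caspase at the branch between apoptosis, necroptosis and, where it is drawn into an inflammasome, gasdermin cleavage. It had 2255, 2292 and 1076 normalized counts in PBS and 2191, 2195 and 2352 in frHMGB1. It had 4705, 4950 and 5304 in dsHMGB1, 7427, 7841 and 7450 in LPS, and 11461, 11789 and 12418 in LPS/IFNγ. The levels rose in that order of stimulations with no overlap between the 3 groups, and PBS replicate 3 was the lowest of the 15 libraries. Against PBS (1875 ± 692), Casp8 rose 2.66-fold after dsHMGB1 (1.41 ± 0.22, adjusted p 0.000193), 4.04-fold after LPS (2.01 ± 0.22, adjusted p 6.6e-06) and 6.34-fold after LPS/IFNγ (2.66 ± 0.22, adjusted p 3.86e-07). Without PBS replicate 3 these log2 fold changes were 1.1, 1.68 and 2.32, so their sizes depend on that library. Casp8 was 1.57-fold higher after LPS/IFNγ than after LPS (0.65 ± 0.22, adjusted p 0.0356), a call lost when any 1 of the 12 libraries outside PBS was left out (adjusted p up to 0.129, range over alternatives 2.36e-11 to 0.129). That call was also lost with the replicate number as a block (adjusted p 0.0508). Casp8 was 2.38-fold lower after dsHMGB1 than after LPS/IFNγ (-1.25 ± 0.22, adjusted p 0.000742). In Casp8, dsHMGB1 minus LPS (-0.6 ± 0.22, adjusted p 0.0872) was called without PBS replicate 3 (adjusted p 1.5e-07, range 1.5e-07 to 0.182), by the DESeq2 Wald test (0.0232), with RLE scaling (0.0438) and with the pair fitted alone (0.000147).

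The effectors differed in which stimulation raised them most. Gsdmd (ENSMUSG00000022575, chr15:75862327-75867408) encodes gasdermin D, which makes the membrane pore. It had 3825, 3635 and 5330 normalized counts in PBS and 4875, 5035 and 4987 in frHMGB1. It had 10953, 9526 and 9953 in dsHMGB1, 15466, 14493 and 14351 in LPS, and 10934, 11018 and 11235 in LPS/IFNγ. The LPS libraries were the highest, and dsHMGB1 overlapped LPS/IFNγ. Against PBS (4264 ± 928), Gsdmd rose 2.38-fold after dsHMGB1 (1.25 ± 0.13, adjusted p 5.88e-07), 3.47-fold after LPS (1.79 ± 0.13, adjusted p 1.39e-08) and 2.6-fold after LPS/IFNγ (1.38 ± 0.13, adjusted p 1.45e-07). It was 1.46-fold lower after dsHMGB1 than after LPS (-0.54 ± 0.13, adjusted p 0.00447) and 1.34-fold lower after LPS/IFNγ than after LPS (-0.42 ± 0.13, adjusted p 0.0196). From mean RPKM the gap of dsHMGB1 from LPS was smaller, 1.16-fold (72.9 against 84.3 RPKM), still without overlap. It was not tested on that scale. The call of LPS/IFNγ minus LPS was lost with protein-coding genes alone (adjusted p 0.0592). After frHMGB1, Gsdmd was 0.22 ± 0.13 (adjusted p 0.273) against PBS, and called without PBS replicate 3 (0.41, adjusted p 0.000243, range 0.000243 to 0.91).

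Ninj1 (ENSMUSG00000037966, chr13:49187485-49196244) encodes ninjurin-1, which clusters in the membrane of dying cells and ruptures it. It had 9513, 8515 and 12017 normalized counts in PBS and 11944, 11947 and 11323 in frHMGB1. It had 29998, 23993 and 25918 in dsHMGB1, 14803, 14845 and 15204 in LPS, and 14301, 13958 and 14227 in LPS/IFNγ. The 3 dsHMGB1 libraries were the highest of the 15, with no overlap with the other groups. Against PBS (10015 ± 1804), Ninj1 rose 2.66-fold after dsHMGB1 (1.41 ± 0.13, adjusted p 1.24e-07), 1.49-fold after LPS (0.58 ± 0.13, adjusted p 0.000704) and 1.41-fold after LPS/IFNγ (0.5 ± 0.13, adjusted p 0.00132). It was 1.78-fold higher after dsHMGB1 than after LPS (0.83 ± 0.13, adjusted p 4.27e-05) and 1.88-fold higher than after LPS/IFNγ (0.91 ± 0.13, adjusted p 1.45e-05). Both of these calls were made under all alternatives. The rises after LPS and LPS/IFNγ depend on the scaling between libraries. Scaled by the library total alone, the mean level was 138 ± 8.39 RPKM in PBS, 129 ± 1.73 RPKM in LPS and 123 ± 1.53 RPKM in LPS/IFNγ, lower than in PBS, and 290 ± 33.1 RPKM in dsHMGB1. The differences on that scale were not tested. After frHMGB1 it was 0.23 ± 0.13 (adjusted p 0.231) against PBS, and called without PBS replicate 3 (0.38, adjusted p 0.00194, range 0.00194 to 0.91).

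The comparison of dsHMGB1 with frHMGB1 sets the 2 HMGB1 preparations side by side at the same dose, and what belongs to the redox form and what to the preparation cannot be told apart in it. In it 7 of the 10 members were called higher after dsHMGB1, against 27.7% of all genes, and 2 lower, against 23.1%. The members' median log2 fold change was 1.17, beside 0.021 over all genes. Nlrp3 was 58.3-fold higher (5.86 ± 0.18, adjusted p 2.02e-10), Casp4 9.16-fold (3.19 ± 0.14, adjusted p 2.91e-10) and Mefv 8.91-fold (3.16 ± 0.14, adjusted p 8.36e-09). Casp1, Casp8, Gsdmd and Ninj1 were 2.04-fold to 3.39-fold higher. Nlrp1b was 6.8-fold lower (-2.77 ± 0.32, adjusted p 8.32e-06), and Nlrc4 was the other member called lower. For the 7 members called higher, all 3 dsHMGB1 libraries lay above every frHMGB1 library.

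The comparisons among the 3 stronger stimulations were less one-sided. For dsHMGB1 minus LPS, 2 members were called higher (Nlrc4 and Ninj1), against 15.8% of all genes, and 2 lower (Casp4 and Gsdmd), against 10.6%. Without PBS replicate 3 these counts were 3 and 5, against 25.6% and 23.3% of all genes in that fit. For LPS/IFNγ minus LPS, 3 members were called higher (Nlrp1b, Pycard and Casp8), against 16.3% of all genes, and 4 lower (Nlrp3, Nlrc4, Casp1 and Gsdmd), against 9.36%. When 1 library was left out, the count called higher ran from 1 to 3 and the count called lower was 5 without PBS replicate 3, against 24.3% of all genes in that fit. For dsHMGB1 minus LPS/IFNγ, 3 were called higher (Nlrc4, Casp1 and Ninj1), against 16.5%, and 3 lower (Pycard, Casp4 and Casp8), against 16.7%. These counts were 5 and 4 without PBS replicate 3, against 27.9% and 25.4% of all genes. The members' medians were -0.24, -0.2 and 0.08 in these 3 comparisons, beside 0.015, 0.002 and 0.011 over all genes. The 3 comparisons share libraries pair by pair.

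**Figure D2:**
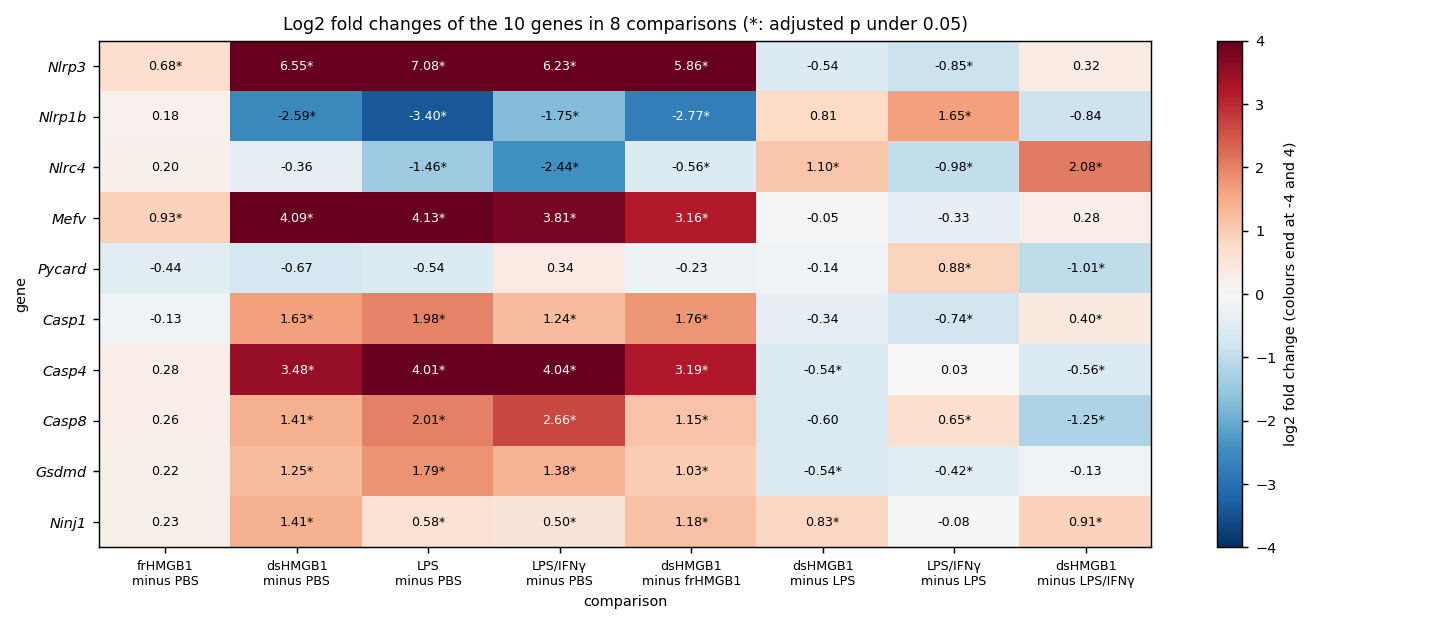
Log2 fold changes of the 10 members in the 8 comparisons (first group minus second), with the members on one axis and the comparisons on the other and calls at adjusted p under 0.05 marked. Nlrp3 reaches 7.08 for LPS minus PBS, and Nlrp1b reaches -3.4 in the same comparison.

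Levels per length place the genes on one rough scale within a group. They are given as RPKM, counts per kilobase of merged exons scaled by the library total. Merged exons pool all annotated transcripts and can be longer than the one expressed, which lowers the RPKM of a gene. Those of Pycard fill 3800 bases of chr7:127989708-127993867, so its level beside other genes is uncertain. In PBS, Ninj1 (138 RPKM), Casp1 (76.6 RPKM) and Gsdmd (38.6 RPKM) were the most abundant members, and Nlrp3 (2.54 RPKM), Nlrp1b (1.04 RPKM) and Mefv (0.545 RPKM) the least. After LPS, Nlrp3 (209 RPKM) and Casp1 (191 RPKM) were the most abundant members, with Ninj1 at 129 RPKM. After dsHMGB1 the order of the first 3 was Ninj1 (290 RPKM), Casp1 (189 RPKM) and Nlrp3 (182 RPKM), and after LPS/IFNγ it was Ninj1 (123 RPKM), Nlrp3 (117 RPKM) and Casp1 (115 RPKM). By mean RPKM, Nlrp3 ranked 7555 in PBS, 231 after dsHMGB1, 235 after LPS and 394 after LPS/IFNγ among 21649 protein-coding genes. Pycard had 7.63, 7.38 and 18.2 RPKM in PBS replicates 1, 2 and 3. Nlrc4 and Nlrp1b were at 0.815 and 0.0591 RPKM after LPS.

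Ratios of 2 genes in the same library do not depend on the scaling between libraries. Casp4 over Casp1, per length, was 0.087, 0.0885 and 0.0894 in PBS and 0.116, 0.127 and 0.11 in frHMGB1. It was 0.309, 0.321 and 0.322 in dsHMGB1, 0.358, 0.359 and 0.371 in LPS, and 0.596, 0.632 and 0.621 in LPS/IFNγ. The 5 groups did not overlap, so these neighbours on chromosome 9 changed unequally, and PBS replicate 3 did not stand apart on this ratio. Ninj1 over Gsdmd was 3.77, 3.55 and 3.41 in PBS, 3.71, 3.59 and 3.44 in frHMGB1 and 4.15, 3.81 and 3.94 in dsHMGB1. It was 1.45, 1.55 and 1.6 in LPS and 1.98, 1.92 and 1.92 in LPS/IFNγ. The balance of the 2 effectors was thus lower in both LPS groups than in every other library, and dsHMGB1 lay just above PBS.

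The sensors' balance moved further. Nlrp3 over Nlrc4 was 0.637 to 0.734 in PBS and 0.823 to 1.07 in frHMGB1. It was 71.3 to 93 in dsHMGB1, 227 to 322 in LPS and 248 to 303 in LPS/IFNγ. Nlrp3 over Casp1 was 0.0428, 0.0435 and 0.0162 in PBS (the last in PBS replicate 3) and 0.0477 to 0.0624 in frHMGB1. It was 0.848 to 1.05 in dsHMGB1, 0.968 to 1.22 in LPS and 0.992 to 1.05 in LPS/IFNγ, and these 3 groups overlapped. The ratios are a description and were not tested.

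**Figure D3:**
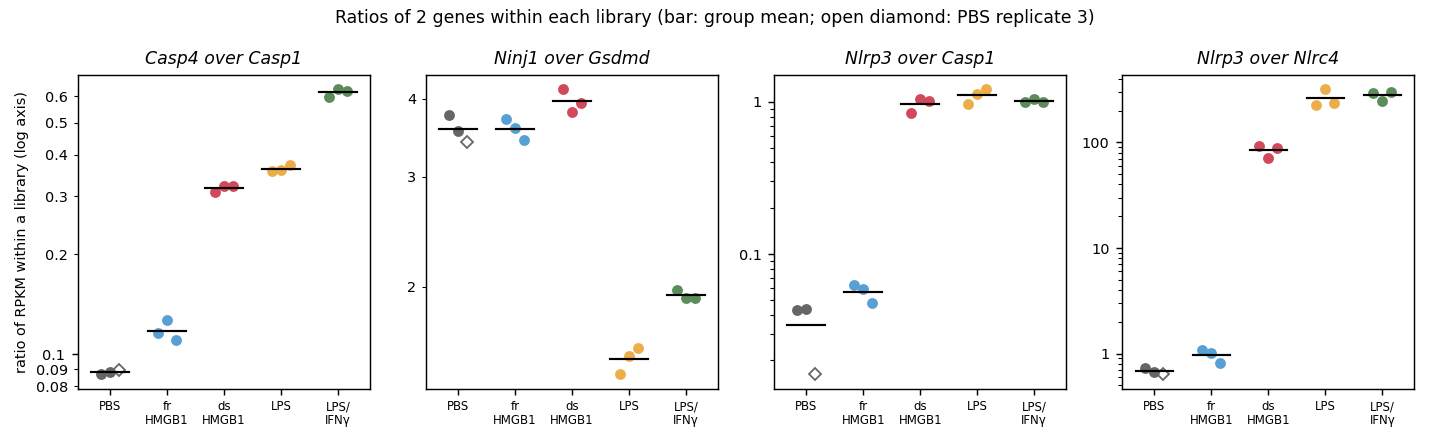
Ratios of 2 members' RPKM within each library (log axes), by group, with a bar at the group mean and an open diamond for PBS replicate 3. Casp4 over Casp1 rises from 0.087 in PBS replicate 1 to 0.632 in LPS/IFNγ replicate 2, and Ninj1 over Gsdmd is lowest in LPS (1.45 to 1.6).

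Over the 15 libraries, which share conditions and are not independent, log2 normalized counts of Nlrp3 correlated with those of Mefv at Pearson r of 0.993 and with those of Casp4 at 0.982. The r of Nlrp3 with Nlrp1b was -0.914, and that of Nlrp1b with Casp1 was -0.976. Ninj1 had r of 0.732 with Mefv, 0.722 with Casp1, 0.706 with Nlrp3, 0.659 with Casp4, 0.627 with Gsdmd and 0.401 with Casp8. Pycard had r between -0.564 (Nlrc4) and 0.122 (Casp4) with the other 9 members. These values describe the group pattern.

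By the same measure, the 3 genes most like each member were taken from 10092 protein-coding genes whose normalized counts averaged 100 or more. For Nlrp3 they were Mx1 (0.9993), Tpm4 (0.9992) and Xkr8 (0.9987), and for Mefv they were Slc31a2 (0.9972), Ctsc (0.9955) and Adhfe1 (0.9944). For Nlrp1b they were Cpeb1 (0.9867), Stx17 (0.9807) and Tbl1xr1 (0.9807), and for Nlrc4 2510009E07Rik (0.986), Mtrr (0.9845) and Wdr91 (0.984). Pycard was matched less closely, by Prr13 (0.971), Cmtm3 (0.9616) and Gng11 (0.9615). For Casp1 they were Ccl4 (0.9952), Htra1 (0.9925) and Shisa3 (0.9917), for Casp4 Cd40 (0.9984), Sod2 (0.9979) and Col27a1 (0.9978), and for Casp8 Inpp5b (0.9987), Fam53c (0.9974) and Fbxo42 (0.9973). For Gsdmd they were Grina (0.996), Dda1 (0.9932) and Srsf7 (0.9924), and for Ninj1 Slc39a13 (0.9816), Gm10134 (0.9799) and Mrpl39 (0.9524).

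The surrounding pathway was read from a list of 61 further genes, chosen like the members with earlier results of these data known. Of these genes 57 passed the filter, and their counts are a description and not a test. Against PBS, 1 was called higher (Il1b, 1.32 ± 0.21, adjusted p 0.000411) and 0 lower after frHMGB1 (edgeR; 0 lower also at an unadjusted p under 0.05 and by the DESeq2 Wald test). Of all genes, 1.31% were called higher and 5.69% lower for frHMGB1 minus PBS. The Il1b call was lost only when the 2 groups were fitted alone (adjusted p 0.106). After dsHMGB1, 29 genes of the list were called higher and 9 lower, after LPS 34 and 15, and after LPS/IFNγ 36 and 11, of 57. The shares of all genes were 23.3% and 24.2%, 26.7% and 36.2%, and 29% and 31.2%. The counts were 28 and 12 for dsHMGB1 minus frHMGB1, 6 and 17 for dsHMGB1 minus LPS, 15 and 9 for LPS/IFNγ minus LPS, and 8 and 26 for dsHMGB1 minus LPS/IFNγ. In that order the shares of all genes were 27.7% and 23.1%, 15.8% and 10.6%, 16.3% and 9.36%, and 16.5% and 16.7%. Without PBS replicate 3, the counts for dsHMGB1 minus LPS were 12 and 30, against 25.6% and 23.3% of all genes, and the count called higher for frHMGB1 minus PBS was 11, against 8.41%. Without that library, the counts for LPS/IFNγ minus LPS were 22 and 19, against 25.1% and 24.3% of all genes. Those for dsHMGB1 minus LPS/IFNγ were 16 and 32, against 27.9% and 25.4%. The list's median log2 fold change was 0.13, 0.59, 0.89 and 1.35 for the 4 comparisons with PBS in the order above, and 0.42, -0.3, 0 and -0.32 for the others, against the medians of all genes given before. The medians were the same with Nlrp6, listed at 0 counts in the 6 PBS and frHMGB1 libraries, set to the bound that 3 counts over the group allow. By that bound Nlrp6 was at least 114-fold higher in LPS/IFNγ, with 59, 81 and 121 counts, than in PBS.

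**Figure D4:**
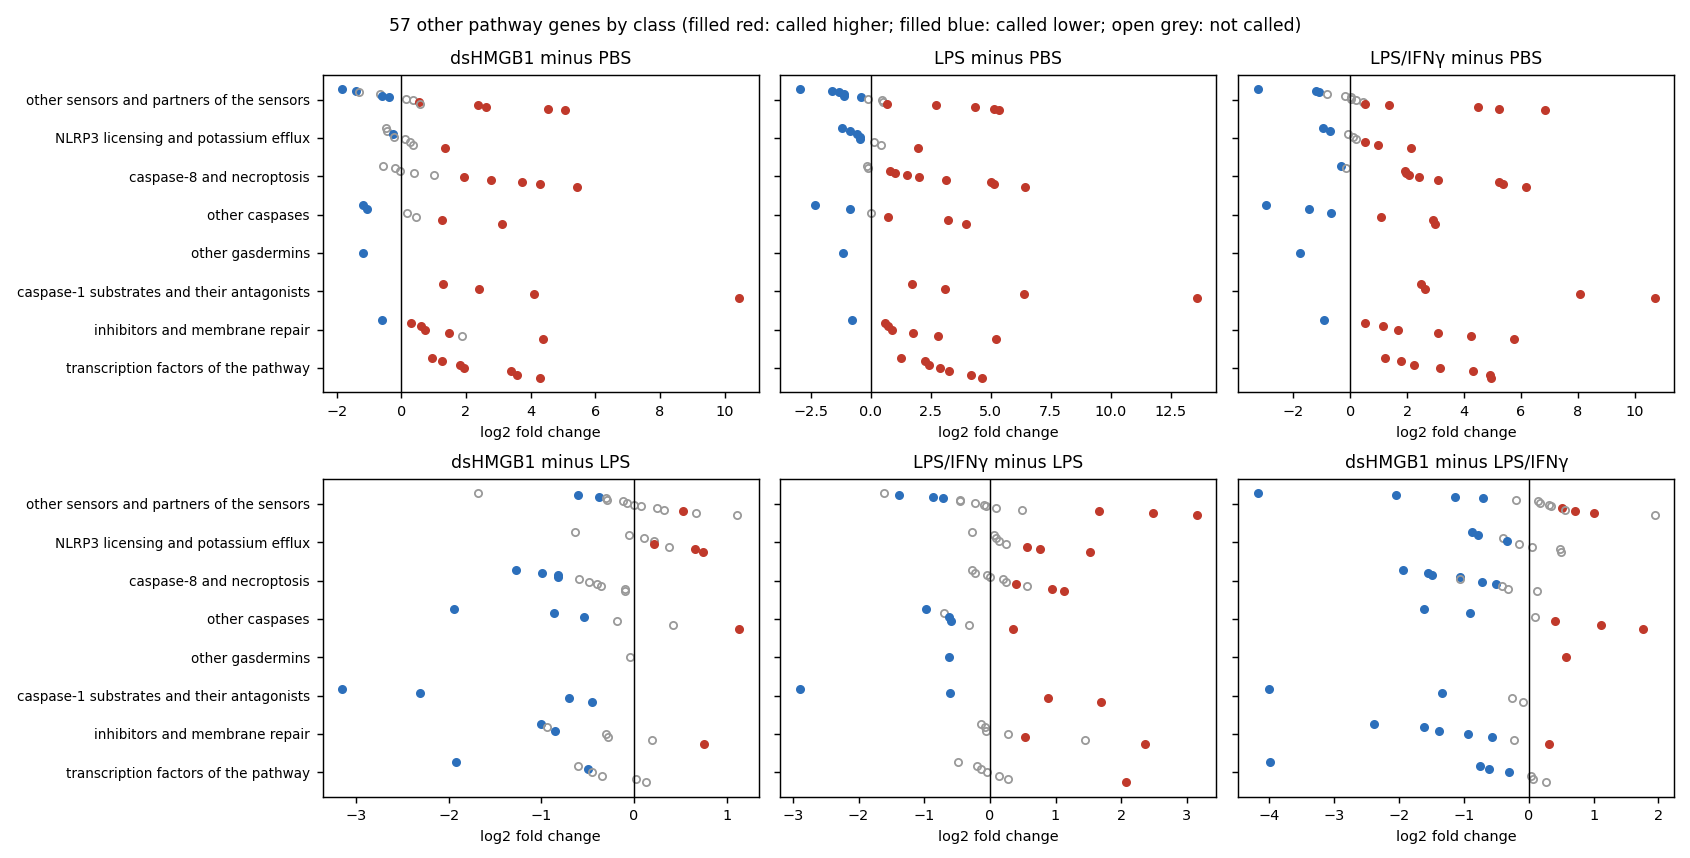
Log2 fold changes of the other pathway genes by class in 6 of the 8 comparisons, with filled points for called genes and open points for the others; Nlrp6 is drawn at its bound against PBS. The points farthest to the right against PBS are caspase-1 substrates (Il1b at 13.59 for LPS), and the single point of the other gasdermins (Gsdme) lies below 0 in the 3 comparisons with PBS.

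Among the other sensors, Aim2, which binds DNA in the cytosol, had 1789 ± 76.2 normalized counts in PBS, 9179 ± 293 after dsHMGB1, 11977 ± 653 after LPS and 4566 ± 177 after LPS/IFNγ. Like Nlrp3 it was lower after LPS/IFNγ than after LPS (-1.39 ± 0.06, adjusted p 1.06e-07). Nod1, a sensor of peptidoglycan, rose after LPS (5.14 ± 0.19, adjusted p 3.48e-10). Naip5, a partner of NLRC4 for flagellin, fell after LPS/IFNγ relative to PBS (-1.11 ± 0.09, adjusted p 2.35e-07). Naip1 was called lower there too (-3.24, adjusted p 0.00176), at 5.15 ± 4.68 against 49.6 ± 13.1 normalized counts. Its LPS/IFNγ libraries ran from 0 to 9.14, so the size of this fall is uncertain. Naip2 (3342 against 3287 normalized counts) and Naip6 (729.3 against 711.3) were not called. The PBS libraries ran from 2362 to 3820 for Naip2 and from 248 to 953 for Naip6. The LPS/IFNγ libraries lay within these ranges, so no direction is given for either gene. Near copies among the Naip genes leave the placing of their reads uncertain. Panx1, a channel, was higher after LPS/IFNγ than after LPS (1.53 ± 0.21, adjusted p 2.26e-05).

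Among the genes around Casp8, Mlkl, the effector of necroptosis, rose after LPS (5.02 ± 0.08, adjusted p 6.42e-13) and, like Casp8, had its lowest mean among the 3 stronger stimulations after dsHMGB1 (5236 ± 142 normalized counts, against 12751 ± 287 in LPS). The difference of dsHMGB1 minus LPS in Mlkl was -1.28 ± 0.07 (adjusted p 1.17e-06). Ripk3, its kinase, was higher after LPS/IFNγ than after LPS (1.13 ± 0.12, adjusted p 7.42e-06). Among other caspases, Casp9 fell after LPS (-2.33 ± 0.17, adjusted p 4.77e-08). Gsdme, the only other gasdermin that passed the filter, fell after dsHMGB1 (-1.19 ± 0.19, adjusted p 6.33e-05), LPS (-1.15 ± 0.19, adjusted p 3.9e-05) and LPS/IFNγ (-1.77 ± 0.19, adjusted p 9.4e-07), opposite to Gsdmd.

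The substrates of caspase-1 rose with it. Il1b had 35.2 ± 6.2 normalized counts in PBS, 49814 ± 7485 after dsHMGB1, 442424 ± 12069 after LPS and 59514 ± 812 after LPS/IFNγ. It was lower after dsHMGB1 than after LPS (-3.15 ± 0.14, adjusted p 3.68e-08), a larger log2 difference than that of any member in this comparison. Il18 rose after dsHMGB1 (2.39 ± 0.19, adjusted p 7.15e-08) and LPS (3.08 ± 0.19, adjusted p 4.66e-09). Serpinb9, a protease inhibitor, was higher after LPS/IFNγ than after LPS (2.36 ± 0.21, adjusted p 6.33e-06). All 7 transcription factors listed were called higher in each of the 3 stronger stimulations against PBS. Of all genes, 23.3%, 26.7% and 29% were called higher after dsHMGB1, LPS and LPS/IFNγ. Irf2, known to drive Gsdmd, had log2 fold changes of 1.81 ± 0.26 (adjusted p 0.000106), 2.26 ± 0.26 (adjusted p 1.16e-05) and 1.78 ± 0.26 (adjusted p 7.83e-05) for dsHMGB1, LPS and LPS/IFNγ. Its PBS libraries ran from 1587 to 4155 normalized counts, so these sizes are uncertain. Over the alternatives they ran from 1.45 to 2.02, 1.88 to 2.42 and 1.39 to 1.98, and each call was kept. Irf8, a factor of myeloid cells, was higher after LPS/IFNγ than after LPS (2.07 ± 0.06, adjusted p 2.58e-09) and was lower after dsHMGB1 than after LPS (-1.92 ± 0.06, adjusted p 1.12e-08).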

How the data were processed

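The deposited table holds raw read counts per Ensembl gene for the 15 libraries, made by the authors from stranded paired-end mRNA reads with CASAVA and STAR on GRCm38, with DESeq2 afterwards. The sources used here name neither the counting program nor its strand setting or annotation. Gene names and positions came from GENCODE M21 (51661 of 51763 identifiers found). Tests used edgeR 4.0.16 in R 4.3.3: TMM scaling, filterByExpr (minimum count 10, minimum total 15), 1 quasi-likelihood fit over all 15 libraries with 10 residual degrees of freedom, two-sided, with Benjamini-Hochberg adjustment. Normalized counts, unshrunken log2 fold changes and standard errors came from DESeq2 1.42.0, and values under alternatives are log2 fold changes from edgeR. The alternatives were the DESeq2 Wald test, RLE scaling, no filter, a filter of 1 CPM in 3 libraries, protein-coding genes alone, a replicate block, each pair of groups fitted alone, and leaving out each library. Genes named are the 10 members, the 61 genes of the pathway list, marker genes of cell types, Gm45205 and, for each member, the 3 protein-coding genes (averaging 100 or more normalized counts) with the highest Pearson r of log2(count + 1). The members and the lists were chosen with earlier results of these data known. Library totals ran from 40934540 to 80925478. Chi-square per degree of freedom between replicates was 4.49 to 844, so no library is a copy of another. Figures were drawn with matplotlib 3.10.9 in Python 3.11.15. The sources differ on the days of M-CSF culture and on whether the frHMGB1 buffers held DTT.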

Additional observations from a re-analysis of the deposited data

How the results depend on the processing

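For single genes, 1491 values without 1 library and 703 under other settings kept their direction and their side of the threshold. In the same order, 18 and 4 changed sign, 19 and 17 were newly called, and 47 and 11 were no longer called. The calls of Nlrp3, Mefv, Casp1, Casp4, Casp8, Gsdmd and Ninj1 above PBS after dsHMGB1, LPS and LPS/IFNγ, and those of Nlrp1b below PBS, held under all alternatives. Scaling by the library total alone is not among them: on that scale the means of Ninj1 turn to -0.09 for LPS minus PBS and -0.16 for LPS/IFNγ minus PBS, which was not tested.

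Fitting each pair of groups alone, with fewer libraries behind the spread, gave 0 members higher for frHMGB1 minus PBS, 5 lower for dsHMGB1 minus LPS and 5 higher for dsHMGB1 minus LPS/IFNγ. Of all genes these fits called 0.047%, 21.7% and 27.7% in the same order, against 1.31%, 10.6% and 16.5% with all libraries. Among pathway genes it gave 0 higher for frHMGB1 minus PBS, 5 lower for dsHMGB1 minus PBS, 28 lower for dsHMGB1 minus LPS, 25 higher and 21 lower for LPS/IFNγ minus LPS, and 13 higher for dsHMGB1 minus LPS/IFNγ. The shares of all genes were 0.047%, 14.2%, 21.7%, 31%, 30.1% and 27.7% in the same order. For frHMGB1 minus PBS, 1 member was called higher with no filter, with a filter of 1 CPM and with protein-coding genes alone, with 0.33%, 1.32% and 0.315% of all genes. With no filter 1 member was lower for dsHMGB1 minus frHMGB1, with 9.7% of all genes. For dsHMGB1 minus LPS, 4 members were lower by DESeq2 and by RLE scaling, with 14.6% and 12.3% of all genes. DESeq2 called 2 pathway genes higher for frHMGB1 minus PBS, with 2.96% of all genes. The cause of these changes was not tested.

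Directions turned relative to the edgeR estimate for Mefv in dsHMGB1 minus LPS (0.006 in edgeR, -0.05 by DESeq2 and by RLE scaling, -0.02 with no filter). They did so for Ninj1 in LPS/IFNγ minus LPS (-0.042 in edgeR, 0 with protein-coding genes alone). Neither difference was called. Gsdmd in LPS/IFNγ minus LPS was lost with protein-coding genes alone (adjusted p 0.0592, range 1.59e-08 to 0.0592), and Pycard there with RLE scaling (0.0675) and protein-coding genes alone (0.0511, range 2.45e-11 to 0.139).

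When 1 library was left out, members called higher ran from 1 to 6 for frHMGB1 minus PBS (6 without PBS replicate 3), 2 to 3 for dsHMGB1 minus LPS, 1 to 3 for LPS/IFNγ minus LPS and 2 to 5 for dsHMGB1 minus LPS/IFNγ. The shares of all genes called higher ran from 0.654% to 8.41%, 11.1% to 25.6%, 11.4% to 25.1% and 13.1% to 27.9% in the same order. Members called lower ran from 1 to 2 for dsHMGB1 minus PBS, 2 to 3 for LPS minus PBS, 1 to 3 for dsHMGB1 minus frHMGB1, 2 to 5 for dsHMGB1 minus LPS and 2 to 4 for dsHMGB1 minus LPS/IFNγ. The shares of all genes called lower ran from 18.8% to 29%, 30.2% to 38.3%, 18.9% to 32.9%, 7.56% to 23.3% and 13.1% to 25.4% in the same order. Pathway genes called higher ran from 1 to 11 for frHMGB1 minus PBS, 2 to 12 for dsHMGB1 minus LPS, 13 to 22 for LPS/IFNγ minus LPS and 5 to 16 for dsHMGB1 minus LPS/IFNγ. Pathway genes called lower ran from 0 to 1 for frHMGB1 minus PBS, 7 to 14 for dsHMGB1 minus PBS, 15 to 30 for dsHMGB1 minus LPS and 7 to 19 for LPS/IFNγ minus LPS. The shares of all genes called lower ran from 4.04% to 9.09% for frHMGB1 minus PBS and 7.52% to 24.3% for LPS/IFNγ minus LPS, and the other comparisons are given above. The highest of these pathway counts and of these shares was in each case without PBS replicate 3.

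The edgeR log2 fold changes that changed sign when 1 library was left out ran from -0.11 to 0.47 (Nlrp1b), 0 to 0.4 (Nlrc4), -0.64 to 0.31 (Pycard), -0.19 to 0.08 (Casp1) and -0.02 to 0.45 (Casp8) for frHMGB1 minus PBS. For Pycard they ran from -0.9 to 0.04 for dsHMGB1 minus PBS, -0.82 to 0.16 for LPS minus PBS and -0.22 to 0.03 for dsHMGB1 minus LPS. They ran from -0.06 to 0.03 for Mefv in dsHMGB1 minus LPS and from -0.01 to 0.07 for Casp4 in LPS/IFNγ minus LPS.

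The sources do not say whether libraries with the same replicate number share anything. Their deviations correlated from -0.38 to 0.37 (median -0.005), over 0.1 in 1 of 30 pairs. With the number as a block, Casp8 in LPS/IFNγ minus LPS had an adjusted p of 0.0508 (range 2.36e-11 to 0.129), and the block changed no other call of a member.

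Nlrp1b, at 20.6 to 108 normalized counts after the 3 stronger stimulations, has the fewest counts of the members. With 3 technical replicates of 1 pool a group, no value here describes the spread between mice.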
